A study of Mus musculus with 4 samples.

Results

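The genes described here handle zinc and copper in the cell: the metallothioneins, the zinc exporters of the Slc30a family, the zinc importers of the Slc39a family, the copper importers, copper ATPases and copper chaperones, and the transcription factor Mtf1. They were taken by gene symbol, as every Slc30a and Slc39a entry together with Mt1, Mt2, Mt3, Mt4, Slc31a1, Slc31a2, Atp7a, Atp7b, Atox1, Ccs, Cox17 and Mtf1. The rule itself used no measured value, but the members were chosen with earlier results of these data known. The rule found 37 entries with 36 symbols among the 27189 entries of the expression tables, since Slc31a2 was listed in 2 entries. Polyadenylated RNA was sequenced from the cell bodies of large motor neurons, cut by laser from the ventral horn of mouse spinal cord, in 4 libraries of 1 mouse each, with 3000 to 4000 cell bodies pooled per library.

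Both genotypes carried a transgene made from a genomic fragment of human SOD1 fused to the gene for yellow fluorescent protein, so the controls were transgenic too and the endogenous mouse Sod1 gene was present in all mice. The fragment brought its own regulatory sequence, and the transgene was therefore not restricted to motor neurons. The 2 wild-type SOD1-YFP mice came from strain 592 and the 2 G85R SOD1-YFP mice from strain 737, in which SOD1 carries a mutation known from inherited amyotrophic lateral sclerosis (ALS). All were 3 months old, before paralysis in the G85R strain, and both strains were kept on a mixed C57BL/6J x SJL/J background. Each genotype was 1 transgenic line, and the G85R line had many more transgene copies, inserted on mouse chromosome 4, so that mutation, copy number and insertion cannot be told apart. Neurons with large bright aggregates were left out of the capture, so the G85R libraries hold only the remaining neurons.

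Metallothioneins are small cysteine-rich proteins that bind zinc and copper and take up oxidants. Mt1 and Mt2 are made in most tissues, in the central nervous system mainly by astrocytes, and are switched on by metals, glucocorticoids and stress, whereas Mt3 is the form of the nervous system. Free zinc is sensed by MTF1, which binds metal response elements in front of Mt1, Mt2 and the zinc exporter Slc30a1. Slc30a proteins move zinc out of the cytosol and Slc39a proteins move it in. Copper enters through SLC31A1 and is handed on by chaperones, of which CCS delivers it to SOD1 itself.

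The 4 metallothionein genes lie side by side on chromosome 8 of the mouse assembly NCBIM37 (the same sequence as mm9), all on the plus strand. Mt4 (Entrez gene 17752) is at chr8:96661104-96662931, Mt3 (17751) at chr8:96676507-96678048, Mt2 (17750) at chr8:96696518-96697467 and Mt1 (17748) at chr8:96702989-96704225. Their transcripts were also compared over the read length of 75 bases. Between the longest annotated transcripts of each pair of these genes, no stretch of that length was shared, and the closest such stretches of any pair, those of Mt2 and Mt4, differed at 11 bases.

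Because MTF1 reads the metal response element, the RefSeq promoters (250 bases before to 50 bases after each start site, from a table on GRCm38.p6) were searched for its core letters, TGCACNC or TGCGCNC, on both strands. The letters occurred at least 1 time in 8444 of 32851 promoters (25.7%), and at least 3 times in 647 (1.97%). Of 35 promoters found for 30 of the member symbols, 19 (54.3%) had at least 1 match and 4 (11.4%) had at least 3. Those 4 belonged to Mt2 with 4 matches and to Mt1, Slc30a4 and Slc30a10 with 3 each. Slc30a1 had 2 matches, Mt3 and Mt4 had 1 each, and Mtf1 and Atox1 had 0. The matches upstream of the start sites of the metallothioneins and of Slc30a1 are shown. Of these genes, only Mt1, Mt2 and Slc30a1 were named above as targets of MTF1. Each line is 30 bases of NCBIM37, on the plus strand, with the matching letters in capitals, and GTGTGCA and GAGTGCA are matches read on the minus strand.
Mt1, chr8:96702955-96702984: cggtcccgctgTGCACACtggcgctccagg
Mt2, chr8:96696284-96696313: agcatcgcctcTGCACCCggcccctcgggc
Mt2, chr8:96696379-96696408: cgcagacccttTGCGCTCagctcctttgct
Mt2, chr8:96696457-96696486: ggggggagggcGTGTGCAggctctgtccca
Mt4, chr8:96661002-96661031: ctcactgggccGTGTGCAgggcgtctggcc
Slc30a1, chr1:193730606-193730635: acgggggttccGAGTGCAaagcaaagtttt
Counted from the start site to the first capital, these lie at -23 for Mt1, at -223, -128 and -50 for Mt2, at -91 for Mt4 and at -43 for Slc30a1. The only match of Mt3 lay 27 bases after its start site. The remaining matches, not shown, lay after the annotated start site as well, at 2 and 20 bases for Mt1, 4 for Mt2 and 30 for Slc30a1. A match of these letters is a description of the sequence and does not show binding. Where transcription begins in these cells was not examined, so the positions hold only for the annotated start sites.

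The captured RNA carried the motor neuron markers at high levels, with all 9 markers tested and summed levels of 2871 and 3191 RPKM in wild-type and 2576 and 2976 RPKM in G85R replicates 1 and 2 (RPKM are reads scaled to transcript length in kilobases and to the mapped reads of the library). The mean in G85R was below that in wild-type for 8 of these 9 markers, among them Chat, the enzyme that makes acetylcholine. The log2 fold changes of all 9 had a median of -0.18, and Ret and Prph had an unadjusted limma p under 0.05. Markers of other cells were also present, at levels that differed between libraries. The 10 astrocyte markers gave sums of 62.8 and 70.2 RPKM for wild-type replicates 1 and 2 and of 158 and 81.4 RPKM for G85R replicates 1 and 2. The 11 microglial markers gave 18.7 and 19.9 RPKM for wild-type and 44.8 and 21.3 RPKM for G85R. Oligodendrocyte markers summed to 862 to 1125 RPKM with no order by genotype, and endothelial markers to 11.5 and 12.0 against 10.4 and 9.69 RPKM. Hemoglobin and other red blood cell genes summed to 2.31 and 2.72 RPKM in wild-type and 13.5 and 12.7 RPKM in G85R libraries. Their tested entries, both of Hbb-b1, were the only markers called by limma (adjusted p = 0.00173 and 0.0466). An unadjusted limma p under 0.05 was also found for Gfap, C1qa, C1qc and Tyrobp, higher in G85R, and for Cldn5, lower in G85R. The mean in G85R was above that in wild-type for all 9 tested microglial markers. Of all the markers, a single entry, of Hba-a2, was at 0 in every library. In such bulk samples, fewer cells of a type and less RNA per cell cannot be told apart. The estimated reads on genes ranged from 21560318 to 25186594 per library, and 1 read was worth a median of 0.0195 to 0.0226 RPKM.

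The metal genes spanned the whole range of expression. Over the 4 libraries, 4 members had a mean of at least 100 RPKM (Mt3, Mt1, Atox1 and Cox17), 11 of 10 to 100 RPKM, 10 of 1 to 10 RPKM and 10 of under 1 RPKM, and 2, Mt4 and Slc39a5, were listed at 0 in all libraries. Mt3 alone, at a mean of 890.4 RPKM, ranked at 36 among the 27189 entries, and Mt1 ranked at 340, Atox1 at 380, Cox17 at 758 and Mt2 at 1121. The 25 members with a mean of at least 1 RPKM entered the test, which was limma on log2(RPKM + 0.1) over all 11530 genes at that level. All log2 fold changes are G85R against wild-type on this scale, which understates the change of low genes.

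**Figure D1:**
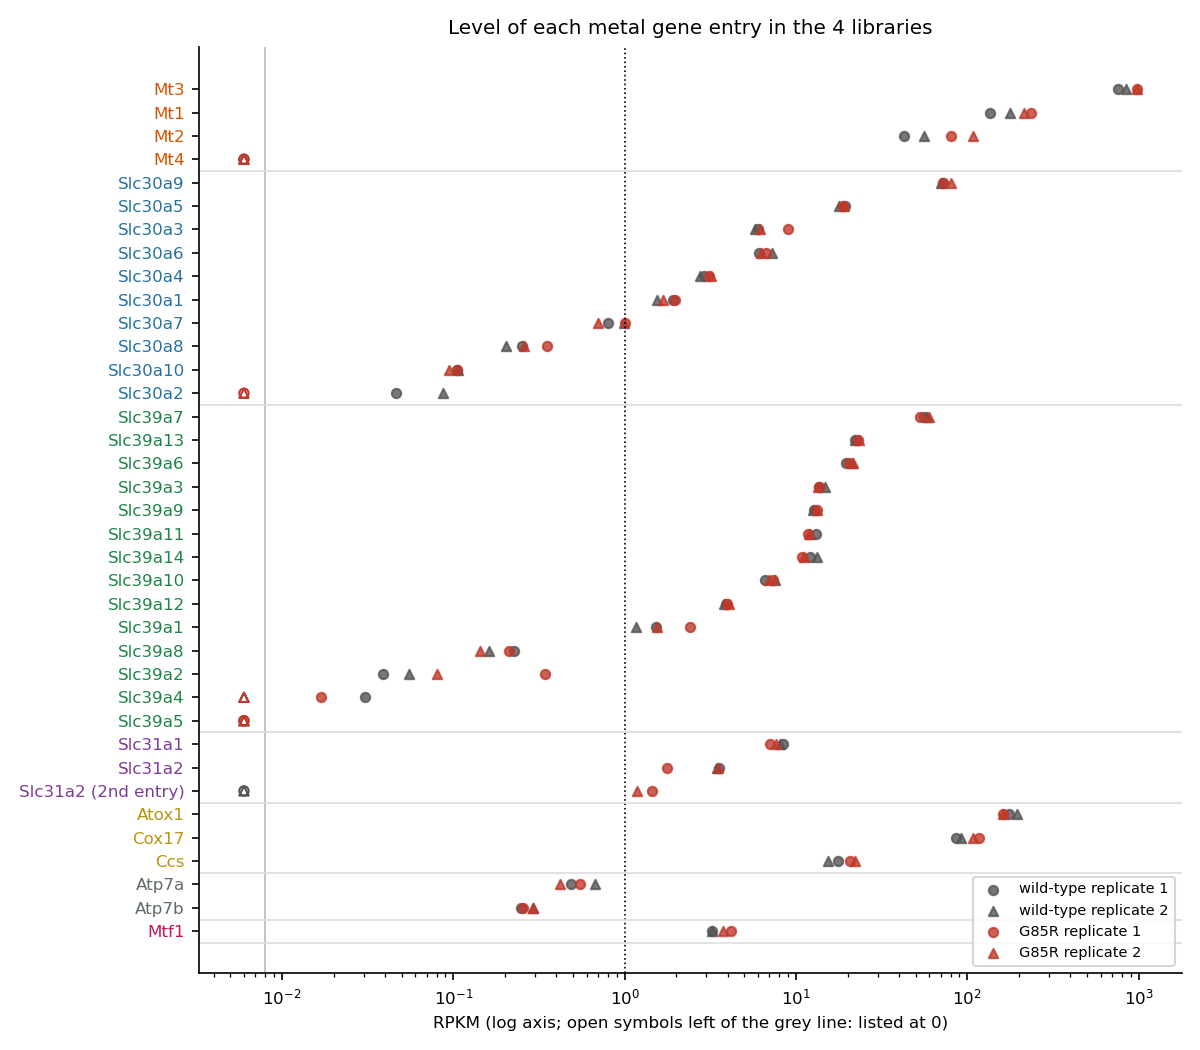
RPKM (log axis) of each of the 37 entries in each of the 4 libraries, grouped by role, with circles for replicate 1, triangles for replicate 2, grey for wild-type and red for G85R, open symbols for values listed at 0 and a dotted line at the 1 RPKM minimum. Mt3 stands highest, and most zinc transporters have 4 symbols that nearly coincide.

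No member was called between genotypes at a limma adjusted p under 0.05, where 74 of all 11530 tested genes (0.642%) were called, 31 higher (0.269%) and 43 lower (0.373%) in G85R. At an unadjusted limma p under 0.05 stood 5 of the 25 tested members, all with higher values in G85R: Mt1, Mt2, Mt3, Cox17 and Ccs. The background at that level was 11% of all tested genes, with 4.66% higher and 6.37% lower. Both G85R values lay above both wild-type values for 13 members and below them for 5, so that the genotypes did not overlap for 18 of 25, where 41.2% of all tested genes did not overlap, 17.3% higher and 23.9% lower. The median log2 fold change of the members was 0.07 (range -0.47 to 0.94, 17 of 25 above 0), and that of all tested genes was -0.02. With 2 libraries per genotype a two-sided exact permutation test of a single gene cannot go below p = 0.333. The limma p-values rest on the spread between these few mice, both of the gene itself and, by shared variance, of other genes of similar level.

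**Figure D2:**
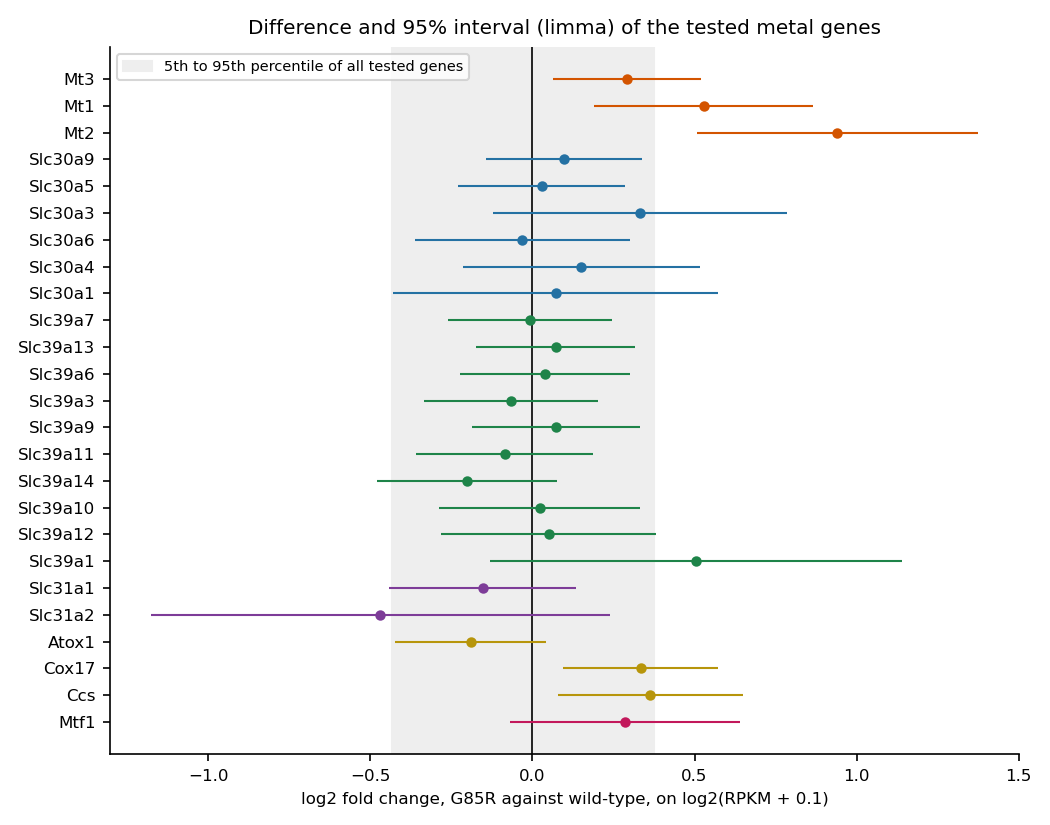
log2 fold change of the 25 tested members, G85R against wild-type on log2(RPKM + 0.1), with its 95% interval from limma and the band from the 5th to the 95th percentile of all tested genes in grey. The intervals of Mt1, Mt2, Mt3, Cox17 and Ccs lie above 0, before adjustment for the number of genes tested, and those of the other 20 members include 0.

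The metallothioneins were the most abundant family, and Mt2 and Mt1 had the highest log2 fold changes of all tested members. Mt3, the nervous system form, was at 755 and 849 RPKM in wild-type replicates 1 and 2, and at 983 and 975 RPKM in G85R replicates 1 and 2. Both G85R values were above both wild-type values, with means of 979 ± 5.46 and 802 ± 66.6 RPKM (SD, n = 2). The ratio of the means was 1.22 and the log2 fold change 0.29 (SE 0.10, 95% interval 0.06 to 0.52), with a limma adjusted p of 0.337. These values rested on 8470 to 10623 estimated reads per library.

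Mt1 was at 136 and 178 RPKM in the wild-type libraries and at 235 and 213 RPKM in the G85R libraries. The genotypes did not overlap, and the gap between them, from 178 to 213 RPKM, was smaller than that between the wild-type mice. The means were 157 ± 29.6 and 224 ± 15.5 RPKM. The log2 fold change, which equals a fold of 1.44, was 0.53 (SE 0.14, 95% interval 0.19 to 0.87, limma adjusted p = 0.222). It was 0.33 without wild-type replicate 1.

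Mt2, which is usually induced together with Mt1, was at 42.5 and 55.8 RPKM in wild-type and at 80.6 and 109 RPKM in G85R libraries. Its lower G85R value was above its higher wild-type value by more than the difference between the wild-type mice. That gap was smaller than the difference between the G85R mice. The means were 49.1 ± 9.45 and 94.6 ± 19.7 RPKM, a ratio of 1.92, and the log2 fold change was 0.94 (SE 0.18, 95% interval 0.51 to 1.37, limma adjusted p = 0.105). By its unadjusted limma p Mt2 ranked at 149 among all tested genes, Mt1 at 398 and Mt3 at 671. Of the 1582 genes with a mean of at least 50 RPKM, a level chosen after the values were seen, 2 had a larger log2 fold change than Mt2, 16 a larger one than Mt1 and 87 a larger one than Mt3.

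Leaving out 1 library changed the call of Mt2 and of no other member. Its log2 fold change was 1.14 without wild-type replicate 2 (limma adjusted p = 0.0333) and 1.15 without G85R replicate 1 (adjusted p = 0.0146), and 0.74 and 0.73 without the other 2 libraries (adjusted p = 0.137 and 0.104). In these fits a genotype with 1 library is assumed to vary like the other. The test named in the study's methods, a log-linear likelihood ratio test that treats RPKM values as if they were read counts, called 62 of all 27189 entries (0.228%). Among them were Mt3 (adjusted p = 4.17e-06), Mt2 (7.3e-05) and Mt1 (0.000594) and no other member. At an unadjusted p under 0.05 it placed 4 members, these and Cox17, where the background was 1.29% of all entries. This test gives more weight to genes with higher RPKM and takes no account of the spread between mice.

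**Figure D3:**
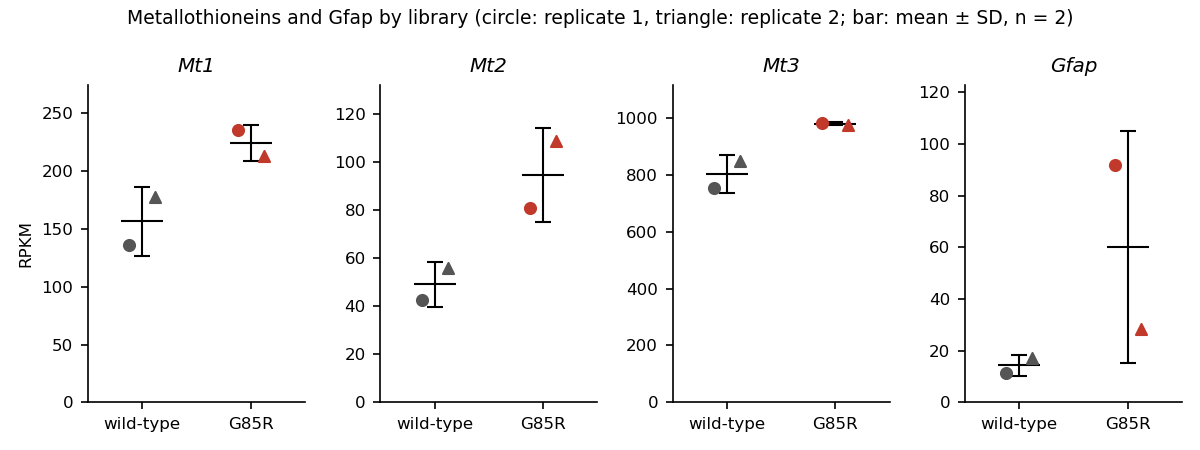
RPKM of Mt1, Mt2 and Mt3 and of the astrocyte marker Gfap in each library (circle for replicate 1, triangle for replicate 2), with the mean and SD of the 2 libraries of a genotype and axes from 0. The metallothioneins are higher in both G85R libraries than in both wild-type libraries, Mt2 is highest in G85R replicate 2 and Gfap in G85R replicate 1.

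Summed over the family, the metallothioneins reached 933 and 1082 RPKM in the wild-type libraries and 1299 and 1297 RPKM in the G85R libraries. Mt3 made up most of that sum everywhere, at 80.9% and 78.4% for the wild-type mice, against 75.7% and 75.2% for the G85R mice. The share of Mt2 was 4.55% and 5.16% for the wild-type mice, against 6.21% and 8.36% for the G85R mice, and that of Mt1 was 14.6% and 16.4% against 18.1% and 16.5%. Relative to the mean of the wild-type libraries, the G85R replicates 1 and 2 differed on the log2 scale by 0.73 and 1.15 for Mt2, by 0.60 and 0.46 for Mt1, and by 0.30 and 0.29 for Mt3.

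Since astrocytes make Mt1 and Mt2, the astrocyte markers are given beside them. Gfap, a filament protein of astrocytes, was at 11.5 and 17.1 RPKM in wild-type and at 91.9 and 28.4 RPKM in G85R libraries (log2 fold change 1.86, SE 0.49, limma adjusted p = 0.212). Its log2 fold change was 2.70 without G85R replicate 2 (limma adjusted p = 8.37e-05) and 1.01 without G85R replicate 1. A mean above that of wild-type was found for 8 of the 10 astrocyte markers. Without Gfap, the other markers summed to 51.3 and 53.1 RPKM in wild-type and to 66.6 and 52.9 RPKM in G85R libraries. Leaving out Gfap, the marker with the largest difference, was not part of the planned lists. In G85R replicate 2, the sum with Gfap was above both wild-type sums and that without Gfap was between them. S100b, which astrocytes also make but which was not in this list, was higher in both G85R libraries. It was at 412 and 414 RPKM in wild-type and at 498 and 483 RPKM in G85R libraries. The part of astrocyte RNA, or of the lower motor neuron markers, in the metallothionein levels was not tested.

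Mt4, a metallothionein of stratified epithelia, was listed at 0 in all 4 libraries, where 1 read would have been 0.0823 to 0.0958 RPKM. Mtf1, the zinc-sensing factor, was at 3.24 and 3.22 RPKM in wild-type and at 4.19 and 3.74 RPKM in G85R libraries. Its G85R values were above its wild-type values, from 174 to 206 estimated reads, and the log2 fold change was 0.29 (SE 0.15, 95% interval -0.07 to 0.64, limma adjusted p = 0.555). Slc30a1, named here after its values were seen because it is a known target of MTF1, was at 1.92 and 1.54 RPKM in wild-type and 1.97 and 1.67 RPKM in G85R libraries. Its genotypes overlapped, with a log2 fold change of 0.07 and a wide 95% interval of -0.43 to 0.57, and the sign turned without wild-type replicate 2 or G85R replicate 1.

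The copper chaperones were the next most abundant group, with summed levels of 279 to 302 RPKM, and their 3 members had no common direction. Cox17 (chr16:38347077-38362383, plus strand), which carries copper for the assembly of cytochrome c oxidase in mitochondria, was at 86.1 and 92.3 RPKM in wild-type and at 117 and 108 RPKM in G85R libraries. The genotypes were separate, with means of 89.2 ± 4.34 and 112 ± 6.03 RPKM, and the log2 fold change was 0.33 (SE 0.10, 95% interval 0.10 to 0.57, limma adjusted p = 0.290).

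Ccs (chr19:4825366-4839322, minus strand), the chaperone that loads copper into SOD1, was at 17.7 and 15.4 RPKM in wild-type and at 20.6 and 22.0 RPKM in G85R libraries. Here too the genotypes were separate, with means of 16.6 ± 1.62 and 21.3 ± 1.01 RPKM and a log2 fold change of 0.36 (SE 0.12, 95% interval 0.08 to 0.65, limma adjusted p = 0.337). Its client, mouse Sod1, was at 96.3 and 146 RPKM in wild-type and at 124 and 150 RPKM in G85R libraries. Those values overlapped (log2 fold change 0.20, SE 0.20, limma adjusted p = 0.806), and whether reads of the human transgene entered them was not tested. Per 100 units of Sod1, Ccs was at 18.4 and 10.5 in wild-type and at 16.6 and 14.7 in G85R libraries, so the ratio of chaperone to client overlapped between genotypes.

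Atox1 (chr11:55260143-55274741, minus strand), which hands copper to the copper ATPases of the secretory pathway, was the most abundant chaperone and had lower values in G85R. It was at 175 and 194 RPKM in wild-type and at 161 and 162 RPKM in G85R libraries. The genotypes did not overlap, and the log2 fold change was -0.19 (SE 0.10, 95% interval -0.42 to 0.04, limma adjusted p = 0.550). The ratio of Cox17 to Atox1 within a library was 0.492 and 0.476 for the wild-type mice, against 0.727 and 0.666 for the G85R mice. Scaling between libraries does not enter this ratio. With Cox17 higher and Atox1 lower in both G85R libraries it had to separate the genotypes, so it adds no further evidence.

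**Figure D4:**
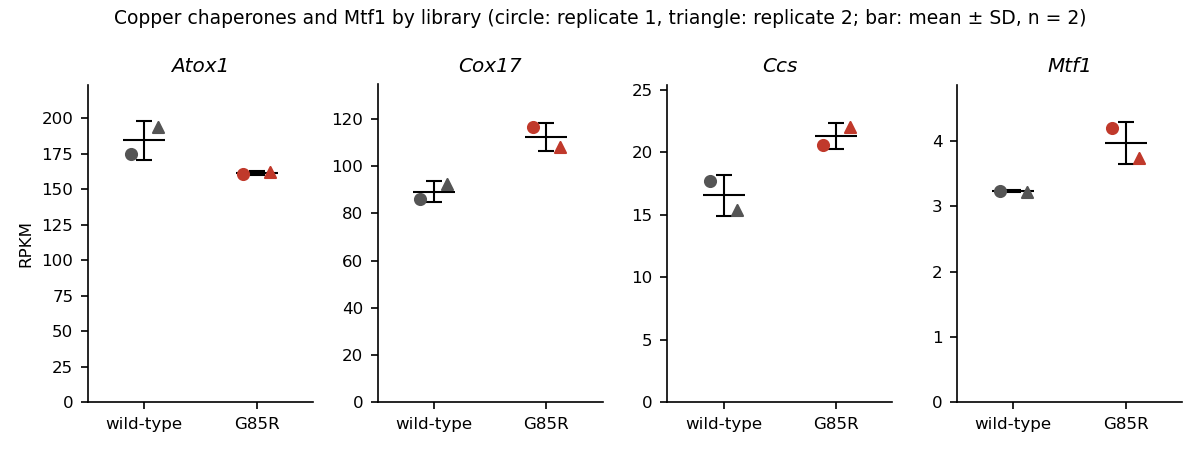
RPKM of Atox1, Cox17, Ccs and Mtf1 in each library (circle for replicate 1, triangle for replicate 2), with the mean and SD of the 2 libraries of a genotype and axes from 0. Atox1 is lower and the other 3 genes are higher in both G85R libraries than in both wild-type libraries.

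The copper transporters were low beside the chaperones. Slc31a1 (chr4:62021761-62052803, plus strand), the high-affinity copper importer, was at 8.35 and 8.02 RPKM in wild-type and at 7.10 and 7.61 RPKM in G85R libraries. The G85R values were the lower ones, by a log2 fold change of -0.15 (SE 0.12, 95% interval -0.44 to 0.14, limma adjusted p = 0.729). Atp7a, a P-type ATPase that pumps copper into the secretory pathway, was at 0.489 and 0.675 RPKM in wild-type and at 0.546 and 0.421 RPKM in G85R libraries, with 57 to 99 estimated reads. Its relative Atp7b was at 0.247 and 0.294 RPKM in wild-type and at 0.254 and 0.292 RPKM in G85R libraries. Both ATPases were below the minimum for the test, and the genotypes overlapped for both.

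Slc31a2, a relative of Slc31a1 on the same chromosome (chr4:61923596-61959445, plus strand), had 2 entries. The more abundant entry was at 3.57 and 3.44 RPKM in wild-type and at 1.77 and 3.53 RPKM in G85R libraries. Its log2 fold change of -0.47 (SE 0.30, limma adjusted p = 0.654) rested on G85R replicate 1 and was 0.01 without it. The other entry stood at 1.44 and 1.18 RPKM in the G85R libraries and was at 0 for both wild-type mice, from 63 and 55 estimated reads, and stayed below the minimum for the test. Summed over both entries, Slc31a2 was at 3.57 and 3.44 RPKM in wild-type and at 3.21 and 4.70 RPKM in G85R libraries, where the genotypes overlapped. Slc31a1, Slc31a2, Mtf1 and Slc30a2 lie on chromosome 4, as does the G85R transgene insertion, and their distance from it was not analysed here.

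The zinc exporters were led by Slc30a9, a transporter linked to mitochondrial zinc. It was at 72.0 and 70.4 RPKM in wild-type and at 72.6 and 79.9 RPKM in G85R libraries. The values of wild-type replicate 1 and G85R replicate 1 were almost equal, and the log2 fold change was 0.10 (SE 0.10, 95% interval -0.14 to 0.34, limma adjusted p = 0.817). Slc30a5, which supplies zinc to enzymes of the Golgi, was at 19.2 and 17.9 RPKM in wild-type and at 18.8 and 19.1 RPKM in G85R libraries (log2 fold change 0.03, 95% interval -0.23 to 0.29). Slc30a3, which fills synaptic vesicles with zinc, had a mean of 6.75 RPKM and a log2 fold change of 0.33, which was 0.058 without G85R replicate 1 and 0.60 without G85R replicate 2. Slc30a6 and Slc30a4 had means of 6.57 and 2.98 RPKM.

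Of the 10 zinc exporter entries, 6 were tested and 0 of these reached an unadjusted limma p under 0.05. Their log2 fold changes ranged from -0.03 to 0.33 with a median of 0.08, and their 95% intervals together from -0.43 to 0.78. The genotypes did not overlap for 3 of the 6, all with higher values in G85R, where 41.2% of all tested genes did not overlap and 17.3% did so with higher values. Below 1 RPKM were Slc30a7 at a mean of 0.870, Slc30a8 of insulin granules at 0.267, the manganese exporter Slc30a10 at 0.103 and Slc30a2 at 0.0335 RPKM.

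Slc39a7, which releases zinc from the endoplasmic reticulum, was the most abundant zinc importer. It was at 55.9 and 57.9 RPKM in wild-type and at 53.3 and 60.1 RPKM in G85R libraries, with both wild-type values between the G85R values (log2 fold change -0.01, SE 0.11, 95% interval -0.26 to 0.25). Slc39a13, a zinc transporter of the Golgi and vesicles, was at 22.0 and 22.0 RPKM in wild-type and at 22.9 and 23.4 RPKM in G85R libraries (log2 fold change 0.07, 95% interval -0.17 to 0.32, limma adjusted p = 0.887).

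Slc39a14, a plasma membrane importer of zinc, iron and manganese, was at 12.1 and 13.3 RPKM in wild-type and at 10.8 and 11.2 RPKM in G85R libraries. It had the lowest log2 fold change among the zinc transporters, -0.20 (SE 0.12, 95% interval -0.48 to 0.08, limma adjusted p = 0.611). Slc39a1, a plasma membrane zinc importer, was at 1.52 and 1.17 RPKM in wild-type and at 2.40 and 1.55 RPKM in G85R libraries. Its lower G85R value barely exceeded its higher wild-type value, and the log2 fold change of 0.51 (SE 0.27, 95% interval -0.13 to 1.14, limma adjusted p = 0.562) rested on 83 to 147 estimated reads per library. It was 0.21 without G85R replicate 1, 0.33 without wild-type replicate 2 and 0.80 without G85R replicate 2.

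Of the 14 zinc importer entries, 10 were tested, again with 0 at an unadjusted limma p under 0.05. Their median log2 fold change was 0.03 (range -0.20 to 0.51), with 95% intervals together from -0.48 to 1.14, and the genotypes did not overlap for 4 with higher and 3 with lower values in G85R, beside 17.3% and 23.9% of all tested genes. The means of the others tested were 20.7 RPKM for Slc39a6, 13.9 for Slc39a3, 13.0 for Slc39a9, 12.2 for Slc39a11, 7.12 for Slc39a10 and 3.92 for Slc39a12. Slc39a8, Slc39a2 and the intestinal importer Slc39a4 had means of 0.185, 0.129 and 0.0119 RPKM. Summed over both families, the zinc transporters were at 271 and 274 RPKM in wild-type and at 274 and 285 RPKM in G85R libraries, a range far narrower than that of the summed metallothioneins.

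**Figure D5:**
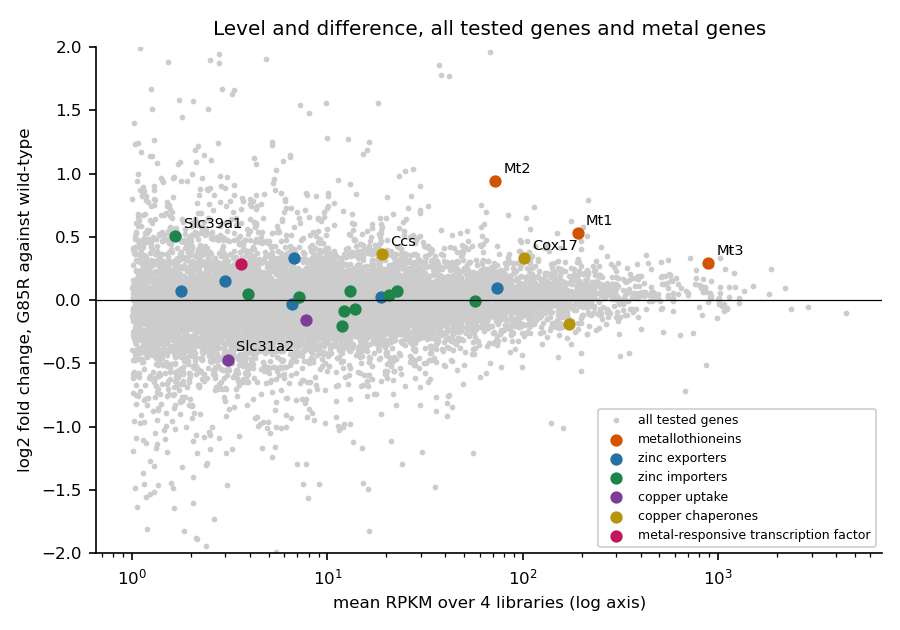
log2 fold change (G85R against wild-type) against mean RPKM over the 4 libraries (log axis) for all tested genes in grey and the tested members in colour by role, with 42 genes beyond 2 in either direction outside the axes. Mt2, at 0.94, lies above nearly all genes of its level, Mt1 and Mt3 lie in the upper part of the cloud, and most zinc transporters lie near 0.

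Other genes of copper and zinc biology were taken from a list of 36 symbols, among them copper enzymes and their assembly factors, copper-binding membrane proteins, and zinc-binding proteins. The list and the counts below also include Mtf2, which is not a metal-responsive factor in spite of its symbol. Of these, 34 were found, 28 were tested and 0 were called by limma, 12 of the 28 (42.9%) had genotypes that did not overlap, 6 in each direction, beside 41.2% of all tested genes, and the median log2 fold change was 0.00. An unadjusted limma p under 0.05 was found for 2 of them (7.14%, beside 11% of all tested genes). Both were higher in G85R, where the background was 4.66%. With so few genes, neither share is read as a difference from the background. S100b, a zinc- and calcium-binding protein that is also made by astrocytes, was at 412 and 414 RPKM in wild-type and at 498 and 483 RPKM in G85R libraries (log2 fold change 0.25, SE 0.09, limma adjusted p = 0.370), higher in both G85R libraries. Sepw1, a small selenoprotein, was at 266 and 285 RPKM in wild-type and at 343 and 333 RPKM in G85R libraries (log2 fold change 0.29, SE 0.09, limma adjusted p = 0.308), again higher in both.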

How the data were processed

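Motor neuron RNA of 4 mice, 2 per genotype, was sequenced. The authors mapped single-end reads with Bowtie 0.12.3 to mm9 and a splice junction database and quantified UCSC gene clusters with Cufflinks, and the deposited values are RPKM, with a second RPKM after adding 1 read. Their difference gave the RPKM of 1 read and the estimated reads. Cufflinks divides reads between overlapping transcripts, and of estimates under 20 reads 61.8% to 63.4% were whole within 0.05, so no count model or interval was used. Whether reads were counted by strand is not given in the sources used here.

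The members and lists were chosen with earlier results of these data known. Genotypes were compared with limma 3.58.1 (R 4.3.3, lmFit, eBayes with trend) on log2(RPKM + 0.1) over genes with a mean of at least 1 RPKM, with Benjamini-Hochberg adjustment over all tested genes and a threshold of 0.05. The limma fit was tested on simulated data with changes larger than those of the tested members. Its power for differences as small as theirs was not tested. The log-linear test was a Poisson model of rounded RPKM with 1 read added. Values per library were given for members at an unadjusted p under 0.05, the 2 most abundant members of each role, and the 3 tested members with the largest non-overlapping difference in each direction, and for Sod1 and other copper and zinc genes at an unadjusted p under 0.05. Cell type markers were lists for motor neurons, astrocytes, oligodendrocytes, microglia, endothelium and red blood cells. Alternatives were other pseudocounts, filters, scalings and variance models, a replicate block, the log-linear test and leaving out each library. Positions came from GENCODE M1 on NCBIM37, and promoters were placed there by exact match. Python 3.11.15, numpy 2.4.6, pandas 2.3.3, scipy 1.17.1 and matplotlib 3.10.9 were used.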

Additional observations from a re-analysis of the deposited data

How the results depend on the processing

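With 2 libraries per genotype, the number of tested genes called, 74, was 112 with no filter on low values, 17 at a mean of at least 5 RPKM, 39 after quantile normalization, 49 with eBayes without trend, 78 to 188 with 1 library left out, and 62 to 101 under the remaining settings other than the replicate block. Members called were 0 under these settings, apart from 3 under the log-linear test and 0 to 1 with 1 library left out. The members' median log2 fold change of 0.072 was 0.048 with pseudocount 1, 0.029 with no filter, 0.039 at a mean of at least 5 RPKM, 0.099 with median ratio scaling, 0.083 after quantile normalization and 0.057 to 0.082 with 1 library left out. The number of members with genotypes that did not overlap, 18 of 25, was 14 of 19 at a mean of at least 5 RPKM and 23 of 37 with no filter. It was 15 after quantile normalization, 16 with median ratio scaling and 20 to 23 with 1 library left out, where fewer libraries separate more easily. The share over all tested genes was not computed for these settings. Other copper and zinc genes called were 0 under the settings run.

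The log2 fold changes of 8 named genes changed sign, and the cause was not tested. With 1 library left out they were -0.023 to 0.081 for Slc30a5, -0.079 to 0.22 for Slc30a1, -0.15 to 0.088 for Slc30a6, -0.094 to 0.079 for Slc39a7, -0.020 to 0.097 for Slc39a6, -0.067 to 0.11 for Slc39a10, -0.95 to 0.0076 for the main Slc31a2 entry and -0.098 to 0.50 for Sod1. Slc39a7 was at 0.02 with median ratio scaling and Slc30a6 at 0.0067 after quantile normalization. Over the limma alternatives, the log2 fold changes were 0.73 to 1.15 for Mt2 (adjusted p 0.000101 to 0.660), 0.33 to 0.72 for Mt1 (0.0209 to 0.752), 0.21 to 0.38 for Mt3 (0.0755 to 1), 0.28 to 0.39 for Cox17 and 0.26 to 0.46 for Ccs.

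With the replicate number as a block, 527 genes and 2 members, Mt1 and Mt2, were called. The labels do not say what equal numbers share, and the deviations of same-numbered libraries from their genotype means correlated at r = 0.22 across 11530 genes, which are not independent replicates, so this fit was not the main one.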

Other observations

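The ratio of Mt2 to Mt1 within a library was 0.313 and 0.314 for wild-type replicates 1 and 2, against 0.342 and 0.508 for G85R replicates 1 and 2, and that of Mt3 to Mt1 was 5.56 and 4.78 against 4.18 and 4.57. G85R replicate 2 thus stood apart for Mt2, while Mt1 was higher in G85R replicate 1. The wild-type mice differed from each other as well, with replicate 2 above replicate 1 by 0.39 for Mt1, 0.39 for Mt2 and 0.17 for Mt3 on the log2 scale.

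The lowest zinc exporter, Slc30a2, was listed at 0 in both G85R libraries and had 2 and 4 estimated reads in the wild-type libraries, too few for a comparison.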
